A study of Mus musculus with 6 samples.

Results

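The inhibitors of cyclin-dependent kinases (CDKs) and the D-type cyclins were examined in immortalized murine glial cells with and without the histone mutant H3.3K27M. The genes were chosen by name and not by a rule on their measured values, but earlier results of these data were known. They comprise the 3 Cip/Kip inhibitors *Cdkn1a*, *Cdkn1b* and *Cdkn1c*, the 4 INK4 inhibitors *Cdkn2a*, *Cdkn2b*, *Cdkn2c* and *Cdkn2d*, and the 3 D-type cyclins *Ccnd1*, *Ccnd2* and *Ccnd3*. These are 10 of the 22911 genes that could be named on the array, and 9 of them were among the 14898 genes bright enough to be tested. WT cells are OS3 glial cells of a male C3H mouse brain (newborn C3H/HeN mice in the study's methods), immortalized with SV40, that carry an empty vector (labeled OS3-vector, 3 arrays). IG27 cells are OS3 cells transfected with a plasmid for the K27M mutant of *H3f3a* and selected as drug-resistant clones (labeled OS3-H3F3A_K27M, 3 arrays). Both were grown for 2 days in the same medium before total RNA was taken, and each sample was measured on 1 single-color Agilent mouse array. The sources do not say how many clones gave the IG27 RNA or that the samples of a group came from separate lines, so the tests measure the spread between samples, which may be technical.

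D-type cyclins bind CDK4 and CDK6 and are made in response to growth factors. The active kinases phosphorylate the retinoblastoma protein and its relatives, which then release E2F factors and allow the genes of S phase to be transcribed. INK4 proteins block CDK4 and CDK6, and Cip/Kip proteins act on the CDK2 complexes and also bind the cyclin D complexes. The *Cdkn2a* locus, next to *Cdkn2b*, is a classical target of Polycomb repressors, which write H3K27me3 and read it, and H3.3K27M is known for lowering that mark in glioma. The large T antigen of SV40 is known to bind both p53 and the retinoblastoma protein.

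All values are log2 of the processed signal minus the 75th percentile of the same array, called normalized log2 intensity here, and a log2 fold change is IG27 minus WT. Genes were tested with limma across all 14898 genes, and a gene was called at a Benjamini-Hochberg adjusted p under 0.05. All 6 arrays lay on 1 slide. WT replicate 2 shared its slide row with the 3 IG27 arrays, and the other WT arrays lay in the other row. The scanner output of IG27 replicate 2 breaks off after 285 of 62976 spots, so its values came from the deposited value table and it has no flag for signal above background. On the other arrays, 58.8% to 61.2% of the probes were well above background, and no spot was saturated. Of the 15 glial markers checked, all were well above background in IG27 cells and 12 in WT cells, where *Slc1a3*, *Fabp7* and *Cspg4* were not. Of the 15, 13 were called (86.7%, beside 70.5% of all genes tested), 7 higher and 6 lower in IG27 cells. *Fabp7* was at least 110-fold and *Slc1a3* at least 20.6-fold higher, and *S100b* was higher by 4.93. *Aldh1l1* and *Gfap* were lower by 1.72 and 1.07. The microglial markers *Cx3cr1*, *Ptprc* and *Trem2*, the neuronal markers *Rbfox3*, *Syt1* and *Dcx*, the endothelial markers *Cdh5*, *Tek* and *Cldn5*, and the fibroblast markers *Col1a2* and *Lum* were not well above background on every array of either group. Sums were taken over the tested genes of a list, as signal relative to the 75th percentile. The glial markers ran from 342 to 358 in WT and from 278 to 292 in IG27 cells. The neuronal markers ran from 17.6 to 20.0 in WT and from 9.96 to 11.0 in IG27 cells. That sum covers opposite changes. *Tubb3* was lower by 2.63 in IG27 cells and *Stmn2* at least 5.32-fold lower, *Snap25* was not called, and *Map2*, not well above background in WT, was at least 180-fold higher. The endothelial markers ran from 0.161 to 0.178 in WT and from 2.58 to 2.65 in IG27 cells, a sum that *Kdr* carried. The sums for microglial markers were 14.6 to 15.6 in WT and 13.9 to 14.4 in IG27 cells, and those for fibroblast markers 150.0 to 154 and 134 to 142. Of the 5 microglial markers tested, 3 were called higher and 2 lower. Among the fibroblast markers *Col1a1* and *Pdgfrb* were lower by 0.92 and 1.16, *Col3a1* was higher by 1.57 and *Dcn* at least 3.32-fold higher. Some of these markers were bright, with WT means of 6.85 for *Col1a1*, 3.78 for *Tubb3*, 3.62 for *Pdgfrb* and 3.31 for *Itgam*. What part these cell type markers have in the differences described here was not tested. In such bulk samples, fewer cells that make an RNA and less of that RNA per cell cannot be told apart.

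Of the 9 genes tested, 7 differed between the groups, which is 77.8% of them beside 70.5% of all genes tested, so the share of calls among these genes was near that of the array as a whole. *Ccnd1*, *Cdkn2b*, *Cdkn1a*, *Cdkn2c* and *Ccnd3* were higher in IG27 cells (5 of 9, against 30.5% of all genes tested), and *Cdkn2d* and *Cdkn1b* were lower (2 of 9, against 40.0%). *Cdkn2a* and *Ccnd2* were not called, and *Cdkn1c* was too dim to be tested. The values of the 2 groups did not overlap for 8 of the 9 genes, and such separation was found for 75.7% of all genes tested. At the unadjusted p of at most 0.05 that the study's methods use, 7 of the 9 passed beside 72.9% of all genes tested. None of the 7 called genes reached a log2 difference of 1, a size that 23.1% of all genes tested passed as called genes. The median log2 fold change of the 9 genes was 0.27, and that of all genes tested was -0.07.

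**Figure D1:**
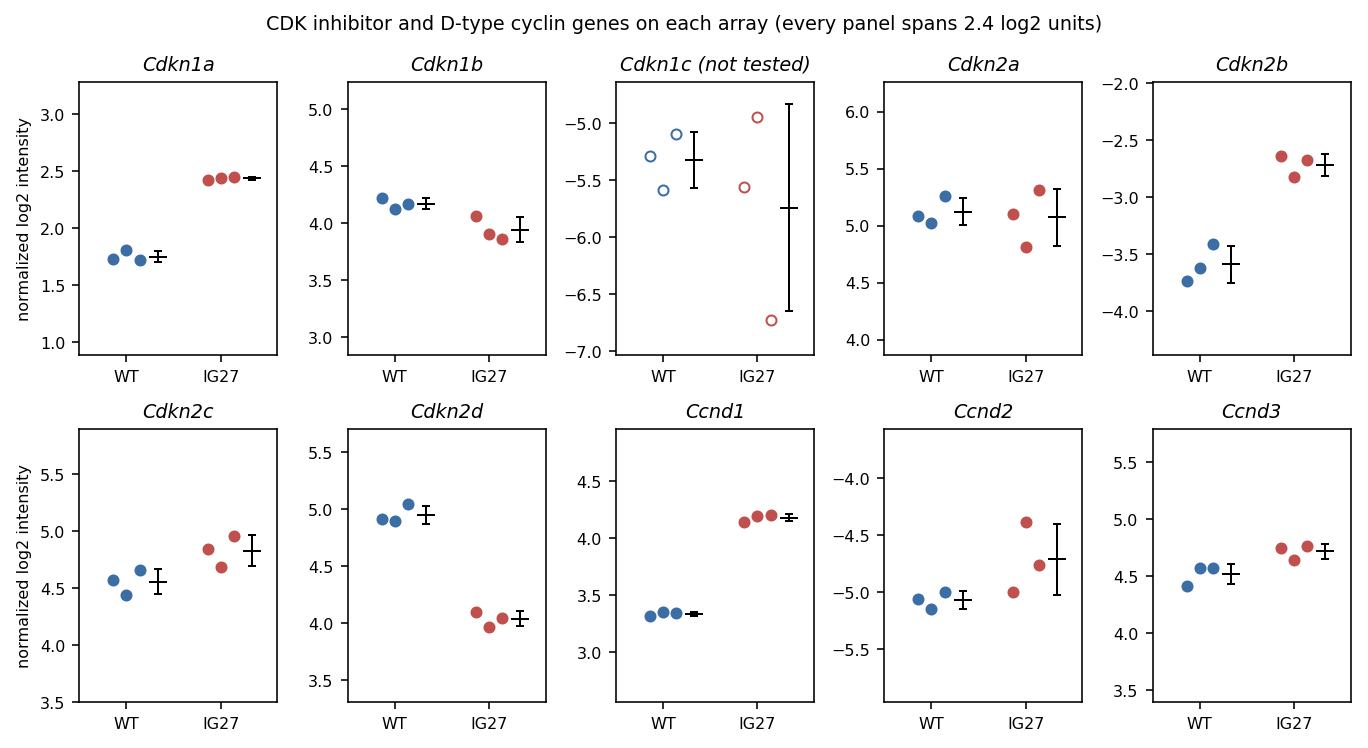
Normalized log2 intensity (y axis, each panel spanning 2.4 log2 units) of each gene on the 3 WT arrays (blue) and the 3 IG27 arrays (red), with replicates 1 to 3 from left to right and the mean and SD of each group in black; open points mark *Cdkn1c*, which was not tested. *Cdkn1a*, *Cdkn2b* and *Ccnd1* stand clearly higher and *Cdkn2d* lower in IG27 cells, while the 2 groups of *Cdkn2a* overlap.

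Among the Cip/Kip inhibitors, *Cdkn1a* rose and *Cdkn1b* fell slightly in IG27 cells. *Cdkn1a* encodes p21, an inhibitor of CDK2 complexes and a known target of p53. Its brighter probe, assigned to NM_007669, read 1.73, 1.80 and 1.72 on the WT arrays, in the order of replicates 1 to 3 that is kept throughout, and 2.42, 2.44 and 2.45 on the IG27 arrays. The IG27 values lay close together and above all WT values. The difference was 0.69 on the log2 scale, or 1.61-fold (standard error 0.05, limma adjusted p = 3.23e-05), and 36.1% of all genes tested had a larger difference in either direction.

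The second *Cdkn1a* probe, assigned to NM_001111099, went the other way. Its intensities were -4.43, -4.00 and -4.23 in WT and -6.85, -6.04 and -7.12 in IG27 cells. It was well above background on all 3 WT arrays and on neither of the 2 IG27 arrays that carry the flag, so its value in IG27 cells is only an upper limit. Measured against the lowest signal that counts as well above background, it was at least 2.17-fold lower in IG27 cells. It passed the filter through WT cells alone, so the p of its fit, which rests on dim IG27 readings, is not given. The 2 probes therefore disagree in direction, and averaging them, dim IG27 readings included, gave a log2 fold change of -0.88 in place of 0.69. RefSeq lists a pair of start sites for the gene on GRCm38.p6, and their windows, from 250 bases before the start to 50 after it, are shown because the probes carry accessions of different transcripts. The files do not say which of the probes reads RNA from which start. The windows are on the plus strand, at chr17:29090729-29091028 and chr17:29093519-29093818, written 5′ to 3′, with each match to GGGCGG on either strand, the core of the GC box, in capitals.
*Cdkn1a* first window: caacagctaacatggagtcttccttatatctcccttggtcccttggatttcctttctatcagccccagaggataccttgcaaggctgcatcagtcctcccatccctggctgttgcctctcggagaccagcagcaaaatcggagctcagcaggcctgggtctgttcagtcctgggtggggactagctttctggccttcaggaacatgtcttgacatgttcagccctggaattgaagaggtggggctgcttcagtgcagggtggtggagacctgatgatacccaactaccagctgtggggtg
*Cdkn1a* second window: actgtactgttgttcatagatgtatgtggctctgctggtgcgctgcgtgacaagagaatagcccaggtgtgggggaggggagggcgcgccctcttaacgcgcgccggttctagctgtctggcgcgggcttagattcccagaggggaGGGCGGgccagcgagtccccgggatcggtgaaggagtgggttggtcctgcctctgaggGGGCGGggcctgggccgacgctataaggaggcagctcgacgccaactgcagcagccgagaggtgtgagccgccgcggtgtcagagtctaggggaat
The first window holds 2 CpG dinucleotides and no GC box core, and the second holds 23 CpG and 2 cores. Across the 32851 promoter windows of that length, the median is 7 CpG, and 35.7% hold at least 1 core.

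*Cdkn1b* encodes p27, the inhibitor that keeps resting cells out of the cycle. Its intensities were 4.22, 4.12 and 4.17 in WT and 4.07, 3.90 and 3.86 in IG27 cells. Every IG27 value was below every WT value, but the gap between the nearest arrays was small. The difference was -0.23, or 1.17-fold lower (standard error 0.07, limma adjusted p = 0.0247). Over the 19 alternative settings the difference ran from -0.47 to -0.08 and missed the threshold in 9. Single arrays decided it, since the call was gone without WT replicate 1 (adjusted p = 0.0725), WT replicate 3 (0.0620), IG27 replicate 2 (0.0780) or IG27 replicate 3 (0.0744) in limma.

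*Cdkn1c* encodes p57, an inhibitor made from an imprinted locus. Its probe read -5.28, -5.59 and -5.10 in WT and -5.56, -4.94 and -6.73 in IG27 cells. The groups overlap, and the IG27 arrays spread over a wider range than the WT arrays. The probe was well above background on 2 of 3 WT arrays and on 0 of 2 flagged IG27 arrays, so neither group was well above background on every array and no fold is given.

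The INK4 inhibitors moved in different directions. *Cdkn2a*, which makes p16Ink4a and, from another first exon and reading frame, p19Arf, did not differ between the groups beyond the spread of the samples. Its brighter probe read 5.09, 5.02 and 5.26 on the WT arrays and 5.10, 4.81 and 5.31 on the IG27 arrays. Both the lowest and the highest of the 6 values came from IG27 arrays. The difference was -0.05 (standard error 0.14, limma adjusted p = 0.770), with a 95% interval from -0.38 to 0.29. The second probe read 1.0, 1.27 and 1.47 in WT and 1.05, 0.86 and 1.61 in IG27 cells, again with overlapping groups and a difference of -0.07 (standard error 0.22, adjusted p = 0.792 in the limma fit over all probes). Both probes carry the accession NM_009877, so the RNAs of p16Ink4a and p19Arf cannot be told apart. The sign of the difference turned in 6 of 19 alternative settings, among them without WT replicate 3 (0.019) and without IG27 replicate 2 (0.082). It was not called in any of the 19, in which the adjusted p of limma ran from 0.123 to 0.921.

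*Cdkn2b*, the neighbor of *Cdkn2a*, encodes p15Ink4b and rose. The intensities were -3.73, -3.63 and -3.41 in WT and -2.64, -2.82 and -2.68 in IG27 cells. All IG27 values were above all WT values, with a gap wider than the range of either group. This is a log2 fold change of 0.87, or 1.83-fold (standard error 0.10, limma adjusted p = 3.16e-04), and 27.9% of all genes tested had a larger difference. The second probe of the gene read -3.93, -3.75 and -4.11 in WT and -3.40, -3.39 and -3.13 in IG27 cells, which is 0.62 higher in IG27 cells (standard error 0.12, adjusted p = 0.00446 in the limma fit over all probes). The rise was called in all 19 alternative settings, with differences from 0.55 to 0.96. So of this pair of adjacent inhibitor genes *Cdkn2b* was called and *Cdkn2a* was not, and the difference between their changes was not tested. The RefSeq promoter windows of both genes, on the minus strand of GRCm38.p6, are shown because this is the locus that Polycomb proteins are known to silence. They lie at chr4:89282143-89282442 and chr4:89294570-89294869 for *Cdkn2a* and at chr4:89310983-89311282 for *Cdkn2b*, are written 5′ to 3′ and have GGGCGG matches on either strand in capitals. The first exon of p19Arf is known to lie upstream of that of p16Ink4a, and on this strand the upstream *Cdkn2a* window is the one with the higher coordinates.
*Cdkn2a* downstream window: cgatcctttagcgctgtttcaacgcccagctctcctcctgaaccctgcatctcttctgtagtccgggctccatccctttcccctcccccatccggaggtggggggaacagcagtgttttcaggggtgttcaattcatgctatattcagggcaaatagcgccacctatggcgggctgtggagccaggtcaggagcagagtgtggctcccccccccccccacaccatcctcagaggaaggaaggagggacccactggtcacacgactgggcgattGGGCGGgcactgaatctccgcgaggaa
*Cdkn2a* upstream window: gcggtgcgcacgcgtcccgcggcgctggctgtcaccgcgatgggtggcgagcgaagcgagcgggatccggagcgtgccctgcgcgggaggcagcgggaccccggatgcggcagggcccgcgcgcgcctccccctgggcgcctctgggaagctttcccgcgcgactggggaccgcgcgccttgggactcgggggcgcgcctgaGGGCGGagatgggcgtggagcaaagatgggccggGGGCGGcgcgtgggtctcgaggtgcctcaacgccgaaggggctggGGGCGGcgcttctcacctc
*Cdkn2b* window: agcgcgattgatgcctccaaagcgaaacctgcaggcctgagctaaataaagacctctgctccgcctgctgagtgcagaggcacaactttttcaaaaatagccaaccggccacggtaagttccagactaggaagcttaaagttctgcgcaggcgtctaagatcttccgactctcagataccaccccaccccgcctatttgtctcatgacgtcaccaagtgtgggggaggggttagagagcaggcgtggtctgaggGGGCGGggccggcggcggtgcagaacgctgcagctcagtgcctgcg
The upstream *Cdkn2a* window holds 45 CpG dinucleotides, more than 98.1% of all windows, and 3 GC box cores. The downstream window holds 12 CpG and the *Cdkn2b* window 18, each with 1 core. The other motifs searched on both strands were the E-box CACGTG (7.15% of all windows), the E2F-type TTTCGCG (0.849%) and TTTGGCG (1.56%), and the TATA box TATAAA (13.6%), and none of these letters occurs in the 3 windows.

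*Cdkn2c* encodes p18Ink4c. Its intensities were 4.57, 4.44 and 4.66 in WT and 4.84, 4.68 and 4.96 in IG27 cells. The lowest IG27 value was only just above the highest WT value. The difference was 0.27, or 1.21-fold (standard error 0.09, limma adjusted p = 0.0379), and it missed the threshold in 6 of 19 alternatives. Without WT replicate 1, WT replicate 2, IG27 replicate 1 or IG27 replicate 3 the adjusted p of limma was 0.0729, 0.104, 0.0935 and 0.105, and with each array scaled to its median the difference was 0.03 (limma adjusted p = 0.811).

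*Cdkn2d*, which encodes p19Ink4d, fell by more than any other of the 9 genes. The intensities were 4.91, 4.89 and 5.04 in WT and 4.10, 3.97 and 4.05 in IG27 cells. The groups were far apart compared with the range within each. The log2 fold change was -0.91, or 1.88-fold lower (standard error 0.06, limma adjusted p = 3.59e-05), and 26.5% of all genes tested had a larger difference. It was called in all 19 alternative settings, with differences from -1.15 to -0.78. Its promoter window, on the minus strand of GRCm38.p6 at chr9:21291160-21291459, is shown beside that of *Cdkn2b* because these 2 INK4 genes changed most and in opposite directions, again with GGGCGG matches on either strand in capitals.
*Cdkn2d* window: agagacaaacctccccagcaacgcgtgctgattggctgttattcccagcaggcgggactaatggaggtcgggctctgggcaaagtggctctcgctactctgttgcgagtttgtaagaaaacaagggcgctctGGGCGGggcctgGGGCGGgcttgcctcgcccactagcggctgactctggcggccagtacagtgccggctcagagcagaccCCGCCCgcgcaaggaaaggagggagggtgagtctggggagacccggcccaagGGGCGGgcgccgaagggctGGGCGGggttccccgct
It holds 22 CpG dinucleotides and 5 GC box cores, and none of the other motifs. RefSeq windows were found for 7 of the 10 genes. The E2F-type letters TTTCGCG occurred in 1 of their 11 windows, a *Cdkn2c* window that also holds CACGTG, and in 0.849% of all windows.

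Of the D-type cyclins, *Ccnd1* rose clearly, *Ccnd3* rose slightly and *Ccnd2* was near background. *Ccnd1* encodes cyclin D1, a product of growth factor signaling. Its intensities were 3.32, 3.35 and 3.34 in WT and 4.14, 4.20 and 4.20 in IG27 cells. The arrays of each group lay close together and the groups far apart. The log2 fold change was 0.84, or 1.79-fold (standard error 0.05, limma adjusted p = 1.08e-05). This was the smallest adjusted p of the 9 genes, the rise was called in all 19 alternative settings (0.60 to 1.0), and 29.0% of all genes tested had a larger difference.

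*Ccnd2* has 3 probes, of which 1 was well above background. That probe read -5.06, -5.15 and -5.0 in WT and -5.0, -4.38 and -4.76 in IG27 cells. The groups touch without overlapping, since IG27 replicate 1 was level with the highest WT array. The difference of 0.35 (standard error 0.15, 95% interval -0.02 to 0.73) missed the threshold (limma adjusted p = 0.0835). It was called only without IG27 replicate 1, where it was 0.50 (limma adjusted p = 0.0204). The other probes ranged from -8.19 to -7.40 over the 6 arrays and were not well above background on any flagged array.

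*Ccnd3* encodes cyclin D3. Its brighter probe read 4.42, 4.57 and 4.57 on the WT arrays and 4.75, 4.64 and 4.77 on the IG27 arrays, without overlap but with a narrow gap. The difference was 0.20, or 1.15-fold (standard error 0.07, limma adjusted p = 0.0358). The other probe, with 4.36, 4.23 and 4.34 in WT and 4.54, 4.39 and 4.40 in IG27 cells, differed by 0.13 and was not called (standard error 0.07, adjusted p = 0.151 in the limma fit over all probes). With each array scaled to its median in place of its 75th percentile, the *Ccnd3* difference turned to -0.04 (limma adjusted p = 0.666). That scaling moved the median of all genes by -0.24, and relative to the median of all genes *Ccnd3* was 0.27 higher under both scalings. Without WT replicate 1, IG27 replicate 1 or IG27 replicate 3 the adjusted p of limma was 0.0956, 0.0910 and 0.102.

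*Ccnd1*, *Cdkn2b* and *Cdkn2d* kept direction and call in all 19 alternatives, and *Cdkn1a* did so in 18, the exception being the mean of its probes. The 19 are not independent. The fit on complete arrays only is the fit without IG27 replicate 2, so it enters each count out of 19 more than 1 time. The other filters, the replicate block, the eBayes trend and the unadjusted threshold left the log2 fold changes of these genes unchanged, so they could not turn a direction. The same holds for averaging probes for *Ccnd1* and *Cdkn2d*, which have 1 probe each. The value table and retained outlier spots hardly moved the values (0.8443 in place of 0.8436 for *Ccnd1*). *Cdkn1b*, *Cdkn2c* and *Ccnd3* lost the call in 6 to 9 of the 19 alternatives. The number of called genes was accordingly 4 to 6 with 1 array left out, and it was 4 (*Cdkn1a*, *Cdkn2b*, *Cdkn2d* and *Ccnd1*) without WT replicate 1 and without IG27 replicate 3. Compared with WT replicate 2 alone, the only WT array in the slide row of the IG27 arrays, the mean IG27 value differed by 0.83 for *Ccnd1*, 0.91 for *Cdkn2b*, 0.63 for *Cdkn1a* and -0.85 for *Cdkn2d* on the log2 scale. The same difference was -0.18 for *Cdkn1b*, 0.05 for *Cdkn2a*, 0.39 for *Cdkn2c*, 0.44 for *Ccnd2* and 0.15 for *Ccnd3*, and with the slide row as a block 5 genes were called.

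**Figure D2:**
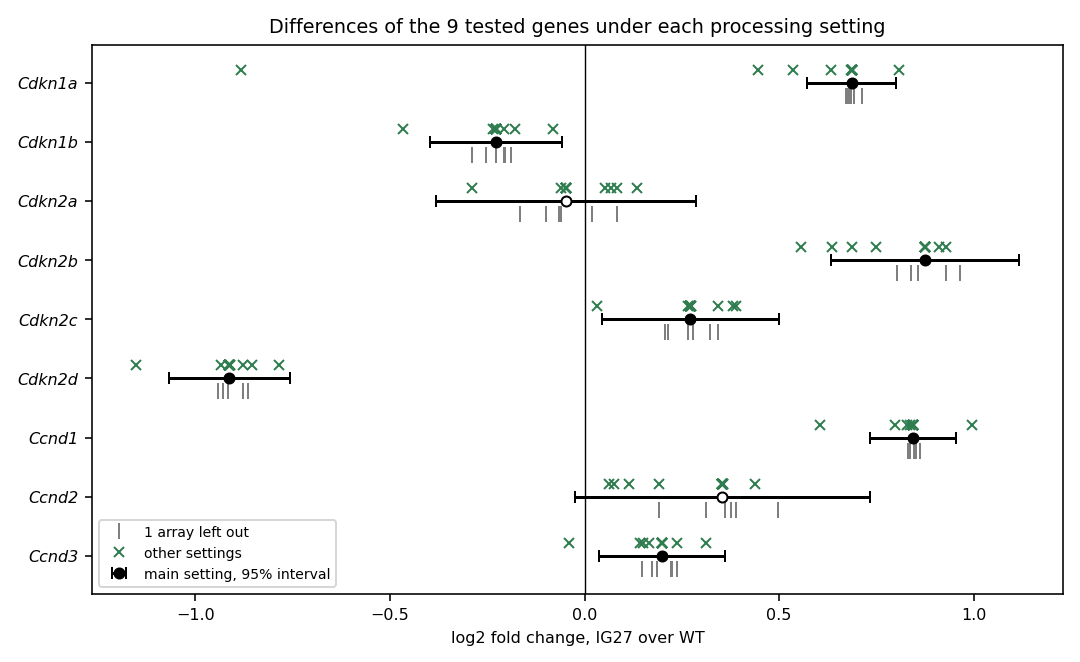
Log2 fold change of IG27 over WT (x axis) for the 9 tested genes, with the reported value and its 95% interval (black, open where not called), the values with 1 array left out (gray ticks) and those under the other settings (green crosses). The values of *Ccnd1*, *Cdkn2b* and *Cdkn2d* stay far from 0 throughout. Those of *Cdkn1b*, *Cdkn2c* and *Ccnd2* also keep their side but come as near as -0.08, 0.03 and 0.06. The *Cdkn1a* cross at -0.88 is the mean of its 2 probes.

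Among the CDKs and cyclins that work with these proteins, more genes were lower than higher in IG27 cells, a split that depended on the scaling. Of 13 such genes 11 were called (84.6%, beside 70.5% of all genes tested), 3 higher and 8 lower, where 30.5% of all genes tested were higher and 40.0% lower. Their median log2 fold change was -0.24 against -0.07 for all genes tested. Under quantile normalization 4 were higher and 5 lower, with a median of -0.14 and *Cdk4* no longer called (limma adjusted p = 0.0534). *Cdk4*, the main kinase partner of the D-type cyclins, was lower by 0.24 (5.64, 5.67 and 5.59 in WT, 5.47, 5.30 and 5.41 in IG27 cells; limma adjusted p = 0.0118). *Cdk6*, the other partner, had values of -7.79, -7.51 and -8.01 in WT, where it was not well above background, and of -3.89, -4.13 and -3.53 in IG27 cells. By the bound described above *Cdk6* was at least 3.79-fold higher in IG27 cells, and *Ccna1*, a cyclin best known from germ cells, was likewise at least 7.49-fold higher. Both passed the filter through IG27 cells alone, so the p of their fits, which rests on dim WT readings, is not given. They are nevertheless among the 3 genes counted as higher. With only genes well above background in both groups, 11 genes were left, 1 called higher and 8 lower. Among genes above background in both groups, *Cdk7*, of the CDK-activating kinase, rose most (0.28, standard error 0.06, limma adjusted p = 0.00570), and *Ccna2*, the cyclin of S and G2 phase, fell most (-1.38, standard error 0.05, limma adjusted p = 2.75e-06).

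Of the 13 pocket protein and E2F genes, 10 were called (76.9%, beside 70.5% of all genes tested), 1 higher and 9 lower, where 40.0% of all genes tested were lower, and the median was -0.52. The single rise was *Rb1*, the gene of the retinoblastoma protein (0.41, standard error 0.08, limma adjusted p = 0.00335). The largest fall was that of *E2f4*, a mainly repressive E2F (-1.35, standard error 0.22, limma adjusted p = 0.00163), whose values were -2.03, -1.99 and -1.75 in WT and -2.88, -3.22 and -3.73 in IG27 cells. *E2f1*, *E2f2* and *E2f3*, which activate the genes of S phase, were not called and had overlapping groups. Of the 18 E2F target genes, 14 were called (77.8%), 4 higher and 10 lower (median -0.32), from *Cdc25a*, a phosphatase that activates CDKs, at -0.83 (standard error 0.06, limma adjusted p = 3.85e-05) to *Tk1*, thymidine kinase, at 0.31 (standard error 0.07, limma adjusted p = 0.00957). The genes for turnover of cyclins and inhibitors gave 9 calls of 13 (69.2%, near the share of all genes), 2 higher and 7 lower (median -0.18), with *Gsk3b*, a kinase that marks cyclin D1 for export and degradation, at 0.54 (standard error 0.11, limma adjusted p = 0.00588) and *Cul4a*, a scaffold of ubiquitin ligases, at -0.98 (standard error 0.04, limma adjusted p = 4.94e-06). *Skp2*, which targets p27, was not called (-0.05, limma adjusted p = 0.536).

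These splits depended on the scaling. With each array scaled to its median, 3 of the inhibitors and D-type cyclins were called higher and 2 lower, and the other counts became 0 higher and 12 lower for pocket proteins and E2F, 0 and 13 for E2F targets and 0 and 9 for turnover. Under quantile normalization the turnover genes gave 3 higher and 5 lower, and with the slide row as a block 3 and 4. The fall of *Ccna2* kept its call with arrays scaled to their median (-1.62), where the calls of *Rb1*, *Tk1*, *Cdk7* and *Gsk3b* were lost.

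The genes around p53 showed no common direction. Of the 17 tested of 18, 6 were higher and 7 lower (76.5% called, beside 70.5% of all genes tested, of which 30.5% were higher and 40.0% lower), with a median of 0.16. These shares were near those of all genes. *Trp53* itself rose by 0.75, from 0.81, 0.94 and 0.84 in WT to 1.68, 1.55 and 1.61 in IG27 cells (standard error 0.06, limma adjusted p = 6.19e-05). *Mdm2*, the ligase that degrades p53 and that p19Arf binds, fell by 0.51 (standard error 0.07, limma adjusted p = 6.60e-04), but the mean of its probes gave -0.06 and no call. *Btg2*, an antiproliferative target of p53, rose most (2.63, standard error 0.05, limma adjusted p = 1.97e-07), and *Fas*, a death receptor, fell most among genes above background in both groups (-1.74, standard error 0.06, limma adjusted p = 2.29e-06). *Cdkn1a*, itself a p53 target, was counted with the inhibitors and not in this list.

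Of the 15 Polycomb regulators, 9 were called, 5 higher and 4 lower (60% of the list beside 70.5% of all genes tested, median -0.01), and with arrays scaled to the median the split was 4 higher and 8 lower. *Bmi1*, whose protein is known to silence *Cdkn2a*, was lower by 1.0 (4.11, 3.91 and 4.08 in WT, 2.94, 3.11 and 3.05 in IG27 cells; standard error 0.08, limma adjusted p = 5.45e-05). *Ezh2*, the enzyme that writes H3K27me3, was lower by 0.55 (3.18, 3.05 and 3.09 in WT, 2.65, 2.54 and 2.48 in IG27 cells; standard error 0.07, limma adjusted p = 4.16e-04). *Cbx7*, a reader of that mark, rose most (1.23, standard error 0.06, limma adjusted p = 5.46e-06). No group difference was called for *Cdkn2a* in the same samples.

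The readouts of ERK signaling, the pathway best known for raising cyclin D1, gave 11 rises and no fall among 13 genes, where 30.5% of all genes tested were higher. Their median log2 fold change was 1.95, or 1.66 with *Dusp4* and *Spry4*, which were not well above background on every WT array, at their lower bounds, and 10 of the 11 were called with a difference of 1 or more, beside 23.1% of all genes tested in either direction. *Dusp6*, a phosphatase that ERK induces and that acts back on it, had 1.03, 1.21 and 1.21 in WT and 4.34, 4.27 and 4.30 in IG27 cells, the largest rise among those above background in both groups (3.15, standard error 0.07, limma adjusted p = 2.88e-07). *Spred1* and *Phlda1* were not called. With arrays scaled to the median there were 11 rises and 1 fall. *Dusp4* and *Spry4* passed the filter through IG27 cells alone, so their calls rest on dim WT readings. With only genes well above background in both groups, there were 9 rises and no fall among 11 genes. The list was chosen with earlier results of these data known, so these counts describe it and are no test of it.

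**Figure D3:**
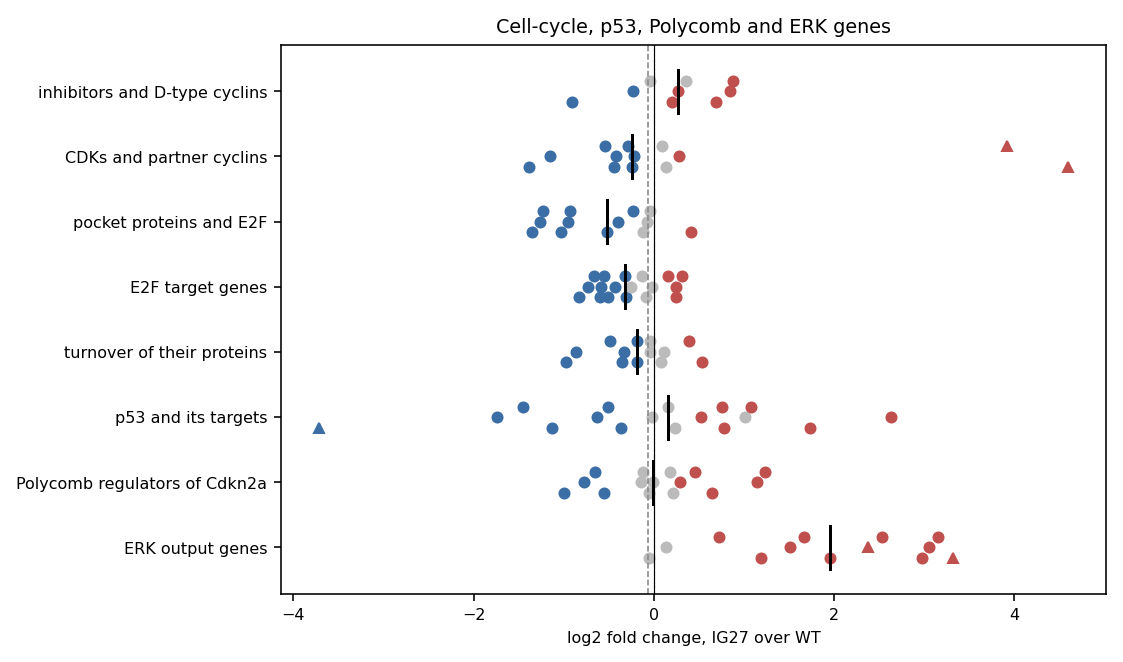
Log2 fold change of IG27 over WT (x axis) for each tested gene of 8 gene lists, red where called higher, blue where called lower and gray where not called, with triangles for genes not well above background in 1 group, whose fitted values are not bounds. Black bars are list medians, and the dashed line is the median of all genes tested (-0.07); the ERK list lies at 1.95 and the pocket proteins and E2F at -0.52.

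The genes beside each inhibitor or cyclin were read from the RefSeq gene order, with up to 5 tested genes on either side. Genes that were not tested were passed over, so a gene described as next to another is the nearest tested one. Around *Cdkn2d*, on chromosome 9, 8 of 10 neighbors were lower in IG27 cells and their median was -0.76, close to the -0.91 of *Cdkn2d*, with *Kri1* at -0.33 and *Slc44a2* at -1.19 next to it. Chromosome 9 as a whole had a median of -0.64 over 813 tested genes, of which 578 were lower and 95 higher. The fall of *Cdkn2d* is thus near the level of its neighborhood, and the part of the neighborhood in it was not tested.

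The neighbors of *Ccnd1* had smaller differences than the gene itself. The 7 of them that were tested had a median of 0.03 and a range from -0.35 to 0.65, below the 0.84 of *Ccnd1*, with *LTO1* at -0.35 and *Tpcn2* at 0.65 next to it. The neighbors of *Cdkn1a* ranged from -0.23 to 0.54, below its 0.69, with *Srsf3* at 0.02 and *Cpne5* at 0.54 on either side. The whole chromosomes of *Ccnd1* (chromosome 7) and *Cdkn1a* (chromosome 17) had medians of 0.13 and 0.16. At the *Cdkn2a* and *Cdkn2b* locus, *Mtap*, next to *Cdkn2a*, fell from 4.39, 4.53 and 4.59 in WT to 3.64, 3.60 and 3.57 in IG27 cells (-0.90, limma adjusted p = 4.34e-05). *Zfp352*, the nearest tested gene on the *Cdkn2b* side, fell by 0.84 (limma adjusted p = 1.15e-04). The nearest tested gene on each side of the pair thus fell. The median over 10 neighbors was -0.44 for *Cdkn2a* and -0.46 for *Cdkn2b*. Over the 7 that were well above background in both groups it was 0.19 for *Cdkn2a* and -0.05 for *Cdkn2b*, the latter being the value of *Cdkn2a* itself, and chromosome 4 as a whole had a median of 0.33.

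For 3 of the genes with small changes, the neighbor median was close to the value of the gene. *Cdkn2c* (0.27) had a neighbor median of 0.38, with *Rnf11* at -0.01 and *Faf1* at 0.46, *Ccnd3* (0.20) of 0.28, with *Taf8* at 0.52 and *Bysl* at 0.31, and *Cdkn1b* (-0.23) of -0.27 over the 8 that were above background in both groups. *Lockd*, the noncoding gene downstream of *Cdkn1b*, fell by 0.78 (limma adjusted p = 4.96e-05), and 2810454H06Rik on the other side was not called. Over all 10 neighbors of *Cdkn1b* the median was -0.21. The medians of the whole chromosomes were 0.33 for chromosome 4 (*Cdkn2c*), 0.16 for chromosome 17 (*Ccnd3*) and -0.21 for chromosome 6 (*Cdkn1b*). These 3 genes were thus also near the level of their chromosomes, whose part in the differences was not tested. Around *Ccnd2* (0.35) the median was -0.25, opposite in sign to the gene, with *Tigar* at -0.53 and *Parp11* at 0.14. Beside *Cdkn1c*, *Kcnq1ot1*, the noncoding RNA of that imprinted domain, was higher (3.29, 3.31 and 2.95 in WT, 3.58, 3.57 and 3.66 in IG27 cells; 0.42, limma adjusted p = 0.0120), as was *Slc22a18* (1.68, limma adjusted p = 3.26e-05), and *Phlda2* was not tested.

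**Figure D4:**
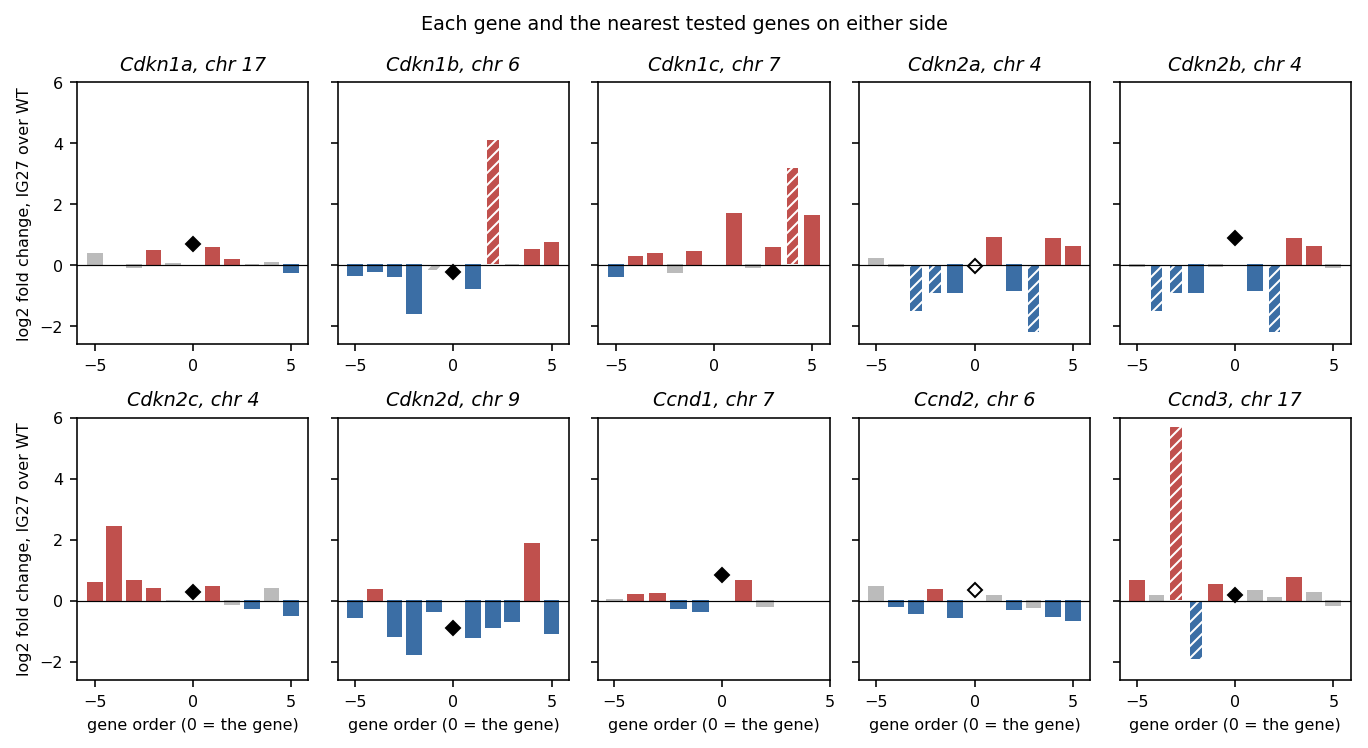
Log2 fold change of IG27 over WT (y axis) for each gene (black diamond, open where not called) and up to 5 tested genes on either side of it in chromosome order (bars, red where called higher, blue where called lower, gray where not called, hatched where not well above background in 1 group). *Cdkn2d* lies among bars that mostly point down, with a neighbor median of -0.76, while *Ccnd1* at 0.84 lies above its 7 neighbors; *Cdkn1c* was not tested and has no diamond.

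For the 3 called genes with the largest differences, the genes with the most similar pattern were taken as those at the smallest Euclidean distance over the 6 arrays, each gene centered on its mean. They were 2500002B13Rik (0.041) and *Tmed1* (0.057) for *Cdkn2d*, *Tbx2* (0.115) and *Ost4* (0.125) for *Cdkn2b*, and *Stt3a* (0.050) for *Ccnd1*. With 2 groups such a distance mostly orders genes by the size of their difference, and the log2 fold changes of these 5 genes ran from -0.93 to 0.94.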

How the data were processed

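RNA of 3 WT and 3 IG27 samples was measured on single-color Agilent arrays. The authors extracted spot intensities with Feature Extraction (version 9.1 in the submitters' notes, 10.7.3.1 in the file headers), and the deposited signal used here is a linear intensity that this software had already processed. It was converted to log2, outlier spots were dropped, and each array was scaled by subtracting its 75th percentile. IG27 replicate 2 came from the deposited value table, which matched its 255 readable single-spot probes within a relative tolerance of 1e-04. That table exchanges the columns of WT replicates 2 and 3, so the scanner output was used for them.

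Probes were named by accession (32994 of 56605, RefSeq GRCm38.p6 gene table, used for names and gene order only). A gene entered through its brightest probe, if that probe was well above background on every flagged array of at least 1 group. limma 3.58.1 (in R 4.3.3, as a two-sided moderated test without a block) was fitted to 14898 genes with Benjamini-Hochberg adjustment, and to all probes for second probes. Lower bounds set the bright group against the lowest signal well above background. The number of arrays limits the precision. The procedure was tested on simulated data.

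The genes and lists were chosen with earlier results of these data known. Named were the 10 genes, the largest rise and fall of each list among genes above background in both groups, *Rb1*, *Cdk4*, *Cdk6*, *Trp53*, *Mdm2*, *Ezh2*, *Bmi1*, the direct neighbors with *Mtap*, *Kcnq1ot1* and *Phlda2*, the 2 closest patterns of 3 genes (1 of these is not reported here), and marker genes. *Ccna1*, *Skp2*, *E2f1*, *E2f2*, *E2f3*, *Dusp4*, *Spry4*, *Spred1* and *Phlda1* were added after their values were seen. The alternatives were 2 other scalings, 2 other filters, outlier spots retained, probes of a gene averaged, normexp, eBayes with trend, complete arrays only, the value table, replicate and slide row blocks, each array left out and the methods' unadjusted threshold.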

Additional observations from a re-analysis of the deposited data

How the results depend on the processing

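The count of called inhibitor and D-type cyclin genes (7 of 9) stayed between 5 and 7 under the other scalings, filters and fits, except that 4 were called with dim probes left in, where 22911 genes were tested, and it was 4 to 6 with 1 array left out. Signs turned for *Cdkn1a* with the mean of its probes (-0.88), for *Ccnd3* with arrays scaled to their median (-0.041) and for *Cdkn2a* under quantile normalization (0.068), normexp (0.13), complete arrays only (0.082) and the slide row as a block (0.052), and with 1 array left out *Cdkn2a* ran from -0.17 to 0.082. The cause of these changes was not tested. Scaling to the array median lowered the share of higher genes among all calls from 43.3% to 27.6%, and without the filter the median of all genes moved by 0.18. For the 7 gene lists the number of calls stayed within 1.5 times the reported one in all settings, but the counts by direction did not, most of them as given in the text. With the slide row as a block the E2F targets gave 2 higher and 10 lower, and with only genes well above background in both groups the CDKs and partner cyclins gave 1 higher and 8 lower.

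Deviations of WT and IG27 samples with the same number correlated at 0.01, 0.04 and 0.08 over the genes tested, and those with different numbers at -0.09 to 0.06. Correlations this weak do not show that the numbers pair the samples, and with 3 arrays in each group they cannot exclude it. With the replicate block, 6 of the 9 genes and 10309 of all genes were called, and *Ccnd3* was lost. At the methods' threshold of an unadjusted p of at most 0.05, 7 of the 9 were called, against 72.9% of all genes. Normexp was run on median signals of the 5 complete arrays, since the files hold no mean signal. Dim probes limit *Cdkn1c*, *Ccnd2* and the second *Cdkn1a* probe.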
